A study of Mus musculus with 3 samples.

Results

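The IFIT and IFITM genes of the mouse encode antiviral proteins. The 8 genes described here, Ifit1, Ifit2, Ifit3, Ifit3b, Ifitm1, Ifitm2, Ifitm3 and Ifitm6, were chosen by gene symbol, and all 8 were found among the 55536 annotated genes of the deposited tables. RNA attached to chromatin, a fraction that holds many transcripts still being made, was prepared from bone marrow-derived macrophages of C57BL/6J mice and sequenced after removal of ribosomal RNA. Macrophages of this kind are phagocytes grown in culture from marrow cells. Every library came from cells treated with Lipid A at 100 ng/ml for 25 min, and Lipid A is the portion of bacterial lipopolysaccharide that TLR4 recognises. There are 3 libraries, named biological replicates 1, 2 and 3, in a single group. No untreated library was analysed here, so none of the levels below shows induction. The libraries differ in the recorded RNA amount, which was 1000, 250 and 500 ng for replicates 1, 2 and 3. All 3 labels name the same donor entry and give neither sex nor age. They do not say whether separate animals or cultures were used, so the p-values below cannot be taken to measure spread between animals.

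IFIT proteins are cytosolic proteins built of tetratricopeptide repeats, and several of them bind viral RNA or translation factors. IFITM proteins are small membrane proteins that hinder the fusion of viruses with the plasma membrane or endosomes. Both families are known as targets of type I interferon, whose receptor signals through STAT2 and IRF9, among others, to a promoter sequence called the interferon-stimulated response element. IRF3, activated below TLR4 through the adaptor TRIF, can bind similar sequences without interferon.

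The 4 Ifit members lay on the plus strand of chromosome 19 within 99.3 kb (chr19:34550694-34650009, mm10). The 4 Ifitm members lay within 63.1 kb of chromosome 7 (chr7:140954837-141017924), Ifitm1 on the plus strand and the others on the minus strand. RefSeq promoter windows of build GRCm38.p6, from 250 bases before the annotated start to 50 after it, were found for all 8 genes, 2 of them for Ifit2. The response element was searched on both strands as GAAANNGAAA, where N is any base. It was present in windows of 5 of the 8 members, against 3.99% of 27025 genes and 3.44% of 32851 windows. The 5 sequences are shown because they hold this element, which appears in capitals, and are written along the strand of the gene.
Ifit1 (chr19:34640760-34640838, plus strand): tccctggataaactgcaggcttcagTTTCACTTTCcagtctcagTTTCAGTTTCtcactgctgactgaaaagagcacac
Ifit3 (chr19:34583348-34583441, plus strand): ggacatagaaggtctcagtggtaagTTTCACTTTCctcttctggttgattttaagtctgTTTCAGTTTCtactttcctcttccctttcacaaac
Ifit3b (chr19:34607744-34607837, plus strand): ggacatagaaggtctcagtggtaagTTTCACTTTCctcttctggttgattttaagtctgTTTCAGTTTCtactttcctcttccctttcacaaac
Ifitm2 (chr7:140955973-140956032, minus strand): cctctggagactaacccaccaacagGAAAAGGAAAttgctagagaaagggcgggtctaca
Ifitm3 (chr7:141010716-141010742, minus strand): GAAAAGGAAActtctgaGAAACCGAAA

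In Ifit1, Ifit3 and Ifit3b the matches read on the strand opposite to the gene, and in Ifitm2 and Ifitm3 on the gene's own strand. Ifit1 held 2 matches, beginning 104 and 85 bases before the RefSeq start, and Ifit3 held 2, at 156 and 122 bases before it. The printed stretches of Ifit3 and Ifit3b are letter for letter the same, and their whole windows were identical at 259 of 260 aligned bases (99.6%). Ifitm2 had 1 match, 46 bases before its start. Both matches of Ifitm3 began after the start, at 2 and 19 bases. The windows of Ifit2, Ifitm1 and Ifitm6 held no match to the response element, which says only that these letters are not in those windows. The NF-kB site was found in 0 of the 8 members, against 5.14% of genes. At that share, 0 among 8 genes is no departure from the background.

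**Figure D1:**
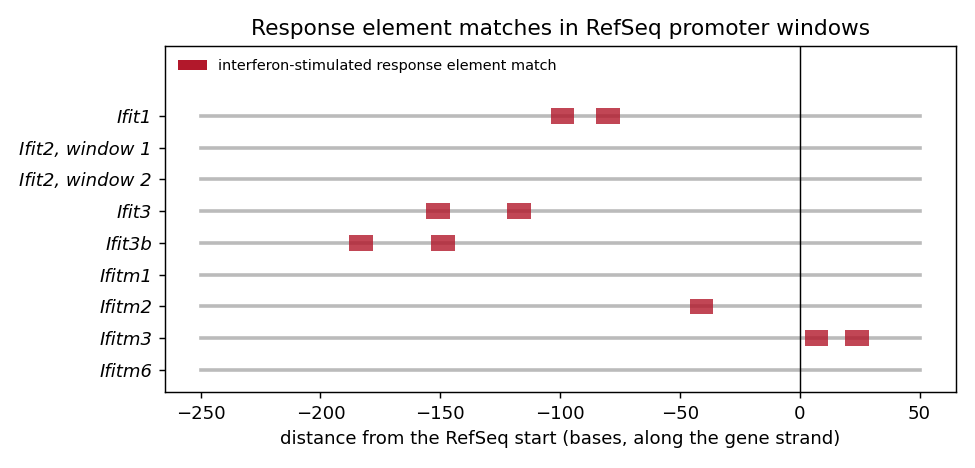
Positions of motif matches in the RefSeq promoter windows of the 8 genes, in bases from the annotated start along the gene strand (grey lines are the windows and red boxes response elements). Response elements lie before the start in Ifit1, Ifit3, Ifit3b and Ifitm2 and after it in Ifitm3.

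The gene tables held 13525994, 19230763 and 19207049 expected counts in replicates 1, 2 and 3. A count of 0 allows up to 0.222, 0.156 and 0.156 CPM (counts scaled to the library total), counting error only. Levels are given in TPM, a measure of transcript abundance that accounts for gene length and library size, recomputed from the deposited counts over the 46615 genes averaging 300 nt or longer. Values are from the RSEM-type tables unless the kallisto-type tables, a second set of estimates deposited for the same libraries, are named. The kallisto-type totals were larger, at 20878296, 33374245 and 32145235 estimated counts in replicates 1, 2 and 3. Counts of the 2 sets are therefore not on the same scale. The 7 macrophage markers examined had mean levels of 42.8 to 535 TPM, with summed levels of 2459, 1744 and 2097 TPM in replicates 1, 2 and 3. Of 18 markers of T cells, B cells, erythroid, neutrophil, stromal and endothelial cells, 8 had no counts, the T cell genes Cd3e, Cd3g and Thy1 among them. The highest of the 18 was the neutrophil gene Ngp at 1.87 TPM. The stromal genes Col1a1 and Col1a2 differed between libraries, with 0, 25 and 30 counts and 0, 17 and 17 counts in replicates 1, 2 and 3. The kallisto-type tables differed here: 2 of the 18 had no counts, 7 had means of 1 TPM or more, and Thy1 was highest with 147.1, 275.3 and 315.3 counts, a mean of 15.6 TPM. Col1a1 had 208.9, 241.2 and 238.5 counts there, and Col1a2 had 17.9, 71.8 and 109.7. Cd3g had 27.2, 69.7 and 81.4 counts there, and the endothelial gene Pecam1 had a mean of 10.3 TPM, against macrophage markers at 40.2 to 604.4 TPM. The absence of T cell markers therefore holds in the RSEM-type tables only, and its part in the results below was not tested. In these bulk samples, fewer cells of a type and less RNA per cell cannot be told apart.

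All members but Ifitm6 reached a mean of 1 TPM. That is 7 of 8, against 32.9% of all genes of this length. In the RSEM-type tables Ifit3 and Ifit2 had the highest mean levels, Ifitm1 and Ifitm2 followed, and Ifit1 and Ifitm3 came next. In the kallisto-type tables Ifitm2 and Ifitm1 were above Ifit3 and Ifit2, so the ranking of these 4 genes depends on the table. Ifit3b and Ifitm6 were near the limit of what the counts resolve. In each of the 6 members above these, replicate 1 was the highest library. A higher TPM in replicate 1 is not particular to these genes. The summed level of the 7 macrophage markers was also highest there, although the marker Cd14 was lowest there (400.8, 454.2 and 632.6 TPM in replicates 1, 2 and 3). Among tested genes of at least 300 nt, 39.6% had replicate 1 above replicate 3 above replicate 2. The share with replicate 1 highest was not counted.

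Ifit3, which in humans stabilises IFIT1 on RNA, had 68.0, 26.5 and 38.9 TPM in replicates 1, 2 and 3, from 607, 365 and 511 expected counts. Its mean was 44.5 ± 21.3 TPM (SD, n = 3), above 93.4% of genes. Ifit2, an RNA-binding protein that protects mice from several neurotropic viruses, had 77.4, 14.3 and 28.3 TPM. Ifit2 was therefore the higher gene in replicate 1 and Ifit3 in the other libraries, and the ratio of Ifit2 to Ifit3 was 1.14, 0.540 and 0.728. The mean of Ifit2 was 40.0 ± 33.1 TPM, or 21.3 TPM without replicate 1. The counts behind it, 1607, 470 and 884, were the largest of any member.

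Ifit1, which recognises RNA whose cap lacks a methyl group that the host adds, had 14.6, 3.87 and 6.78 TPM in replicates 1, 2 and 3. Its mean was 8.41 ± 5.53 TPM (SD, n = 3), and 5.33 TPM without replicate 1. The level of Ifit3 was 5.74 ± 1.08 times that of Ifit1 over the 3 libraries. Ifit3b, a close copy of Ifit3, had 2.85, 0.781 and 0.618 TPM, and its mean was 1.42 ± 1.25 TPM, or 0.700 TPM without replicate 1. Those levels rested on 29.7, 12.6 and 9.49 expected counts. For whole counts of 30, 13 and 9, exact Poisson 95% intervals ran from 20.2 to 42.8, from 6.92 to 22.2 and from 4.12 to 17.1. The intervals of replicates 1 and 2 overlapped, as did those of replicates 2 and 3. These counts are not scaled for library totals, so the intervals do not compare levels between libraries. As throughout, the intervals cover counting error only.

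Among the Ifitm genes, Ifitm1, a protein best known at the cell surface in human cells, had 44.5, 10.9 and 17.2 TPM in replicates 1, 2 and 3. Replicate 1 again stood above the other libraries, and the mean was 24.2 ± 17.9 TPM (SD, n = 3), or 14.0 TPM without replicate 1. Ifitm2, an endosomal relative, had 37.2, 11.7 and 23.2 TPM, from 97, 44 and 84 counts. Its mean of 24.0 ± 12.8 TPM was close to that of Ifitm1, and the gene order of the pair differed between libraries. In the kallisto-type tables Ifitm2 was above Ifitm1 in all 3 libraries, with means of 34.4 and 26.6 TPM. Ifitm3, which blocks the entry of influenza virus from endosomes, had 11.0, 6.53 and 6.80 TPM and a mean of 8.10 ± 2.48 TPM. In the RSEM-type tables Ifitm3 varied least of the 8 members, with a coefficient of variation of 30.6% against 48.0% to 89.9% for the others. In the kallisto-type tables its mean was 6.53 ± 2.44 TPM. There the SD was smaller relative to the mean for Ifit3b (2.00 ± 0.41 TPM) and Ifitm6 (0.205 ± 0.027 TPM). The counts of Ifitm3 were 30, 26 and 26. Ifitm6 had 1, 2 and 0 counts and a mean of 0.299 ± 0.269 TPM, and its count of 0 in replicate 3 allows up to 0.156 CPM.

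**Figure D2:**
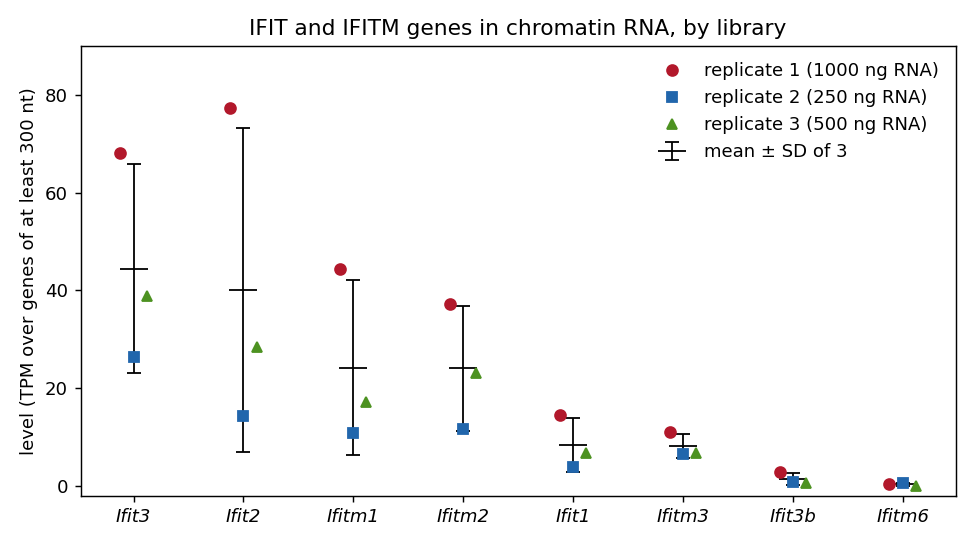
Level of each member from the RSEM-type tables, in TPM over genes of at least 300 nt (linear axis), ordered by mean, with 1 symbol per library and bars for the mean ± SD of 3 libraries. Replicate 1 is the highest library for the 7 genes from Ifit3 to Ifit3b, and the spread within a gene is as wide as most steps between neighbouring genes.

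By mean level the order in the RSEM-type tables was Ifit3, Ifit2, Ifitm1, Ifitm2, Ifit1, Ifitm3, Ifit3b and Ifitm6. The kallisto-type means were 34.4 TPM for Ifitm2, 26.6 for Ifitm1, 25.5 for Ifit3, 23.9 for Ifit2, 6.53 for Ifitm3, 6.32 for Ifit1, 2.00 for Ifit3b and 0.205 for Ifitm6. In the RSEM-type tables the ranges of neighbours overlapped for the first 5 of the 7 steps. They did not overlap between Ifitm3 and Ifit3b or between Ifit3b and Ifitm6. On the log2(TPM + 1) scale Ifit2 was above Ifitm1 in 3 of 3 libraries (difference 0.61 ± 0.22, SD), but in 0 of 3 in the kallisto-type tables (-0.20 ± 0.11). Ifitm2 was above Ifit1 in 3 of 3 libraries of either table, by 1.44 ± 0.18 and 2.26 ± 0.08. In the RSEM-type tables Ifitm1 and Ifitm2 differed by -0.09 ± 0.33, and Ifit1 and Ifitm3 by -0.08 ± 0.51, with the order changing between libraries in both pairs. The 4 Ifit members summed to 162.8, 45.4 and 74.6 TPM in replicates 1, 2 and 3, and the 4 Ifitm members to 93.0, 29.6 and 47.2 TPM. The ratio of the sums was 1.75, 1.54 and 1.58, so Ifit exceeded Ifitm in each library. In the kallisto-type tables the Ifit sums were 96.3, 29.6 and 47.2 TPM, the Ifitm sums 110.0, 34.1 and 59.2 TPM, and the ratio 0.875, 0.870 and 0.797, so the balance of the families turned with the table. The log2(TPM + 1) values of the 4 Ifit members were also averaged in each library, which gives the sparse Ifit3b the same weight as the others. Ifitm3 lay below that average by 1.00, 0.04 and 0.50 log2 units in replicates 1, 2 and 3. The mean difference was -0.51 ± 0.48 (SD, n = 3), and it does not compare Ifitm3 with the mean of the Ifit levels in TPM.

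The recorded RNA amount is the only labelled difference between the libraries. It gives 3 amounts with 1 library each, so the amount cannot be told apart from any other property of a library. A slope per doubling of RNA amount was fitted across all genes with edgeR's quasi-likelihood test, on expected counts rounded to whole numbers. The fit leaves 1 residual degree of freedom. That residual is the departure from a straight line in log2 RNA amount, not spread between libraries of the same amount. The test also draws on the variation of other genes. A gene was called at a Benjamini-Hochberg adjusted p under 0.05 over the 15077 genes that passed the filter on low counts. Among all genes, 2.98% were called higher with more RNA and 1.41% lower. Of the members, 7 passed the filter, 3 were called higher, 0 were called lower, and Ifitm6 was not tested.

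Ifit2 had the steepest slope among the members, 1.02 ± 0.14 log2 units per doubling (SE), with an adjusted p of 0.000516 by edgeR. Ifitm1 was called at 0.86 ± 0.20 (adjusted p = 0.0197), and Ifit1 at 0.76 ± 0.19 (adjusted p = 0.0259). For each of these 3 genes replicate 1 was highest, replicate 3 next and replicate 2 lowest. Without replicate 1 the slope of Ifitm1 was 0.50, and that of Ifit1 0.67. In DESeq2 the adjusted p of Ifitm1 was 0.0699 and that of Ifit1 0.0642, and only Ifit2 was called. The slope of Ifit3 was 0.50 ± 0.14 (edgeR, adjusted p = 0.0557), and that of Ifitm2 0.69 ± 0.22 (adjusted p = 0.0824), so both missed the threshold in this fit. Ifit3b had a slope of 0.80 ± 0.36 and Ifitm3 one of 0.23 ± 0.29, with adjusted p of 0.211 and 0.686 by edgeR. Over the 7 tested members the median slope was 0.76, against -0.01 over all genes tested. The order of replicate 1 above replicate 3 above replicate 2 in TPM was seen in 6 of 7 tested members, against 39.6% of the 14944 tested genes of at least 300 nt.

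Other interferon-stimulated genes were described from a list of 42, all of which passed the filter. Of these 10 were called higher with more RNA and 0 lower, and the median slope was 0.40 log2 units per doubling. The median level of the list was 62.9, 23.9 and 33.8 TPM in replicates 1, 2 and 3. The most abundant were Parp14, an ADP-ribosyltransferase, at 421.5 ± 193.5 TPM (SD, n = 3), Sp100, a nuclear body protein, at 380.4 ± 125.3 TPM, and Ifi204, a DNA-binding protein, at 315.9 ± 153.5 TPM. All 3 had means above that of any IFIT or IFITM gene. At the low end were Phf11b at 2.97 ± 1.26 TPM and Igtp, a GTPase that acts on pathogen vacuoles, at 2.65 ± 0.80 TPM. The largest called slopes belonged to Gbp5, Gbp2 and Cxcl10. Gbp5, a guanylate-binding protein, had 539.7, 35.1 and 111.9 TPM and a slope of 1.76 ± 0.13 (edgeR, adjusted p = 1.85e-06). Gbp2, of the same family, had 75.7, 9.33 and 19.7 TPM and a slope of 1.31 ± 0.15 (adjusted p = 0.000229). Cxcl10, a chemokine, had 99.2, 22.6 and 33.6 TPM and a slope of 1.22 ± 0.15 (adjusted p = 0.000304).

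**Figure D3:**
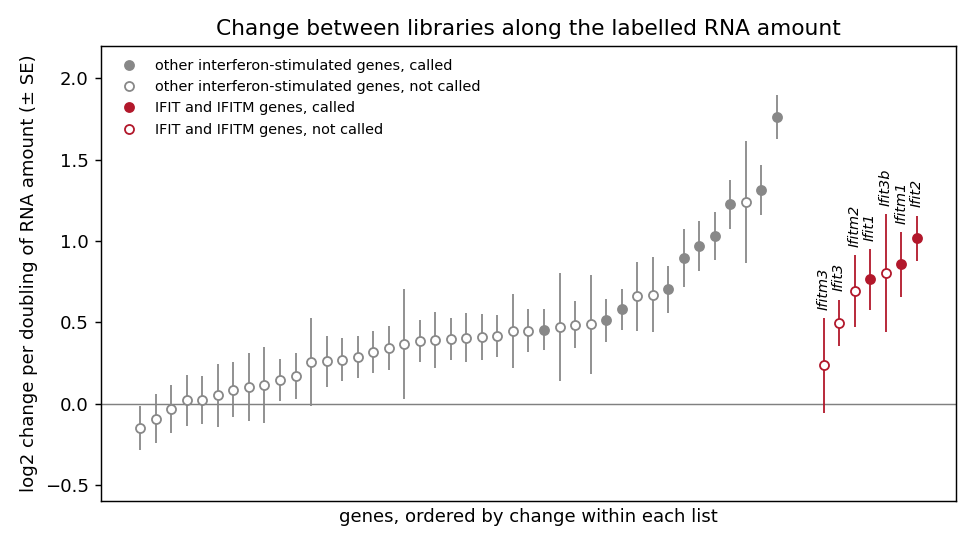
Fitted log2 change per doubling of the labelled RNA amount, with SE, for the 42 other interferon-stimulated genes (grey) and the 7 tested members (red), ordered within each list. Filled symbols are genes called by edgeR, which are 10 of the 42 and, among the members, Ifit1, Ifitm1 and Ifit2.

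Of 19 genes that act upstream of the families, 17 passed the filter, 1 was called higher and 0 lower, with a median slope of -0.01. The called gene was Irf1, a transcription factor, whose level of 2827, 1060 and 1583 TPM was the highest of the list in each library and whose slope was 0.63 ± 0.13 (edgeR, adjusted p = 0.00776). Ikbke, a kinase that phosphorylates IRF3 and IRF7, had 774.7 ± 190.1 TPM (SD, n = 3), and Stat2, a partner of IRF9, had 248.9 ± 25.3 TPM. Stat2 had 255.1, 221.1 and 270.5 TPM in replicates 1, 2 and 3, with a slope of -0.07 ± 0.15 that was not called. Ifnb1 and Ifna4, which encode type I interferons, had 0 counts in every library. At these depths 0 counts allows each of them up to 0.222, 0.156 and 0.156 CPM.

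Members can share reads with copies. The leading transcripts of Ifit3 and Ifit3b were 97.8% identical over 1700 aligned nt, and 61.8% of the 31-base words of Ifit3 also occurred in Ifit3b. With words of 75 bases the share was 41.1%. The posterior SD that the deposited tables give for the count of Ifit3b was 2.71, 1.82 and 1.70 in replicates 1, 2 and 3. Ifit3 held 96.7% ± 1.4 (SD, n = 3) of the counts of the pair in the RSEM-type gene tables and 90.2% ± 5.6 in the kallisto-type tables. In the kallisto-type tables Ifit3b had 40.5, 80.0 and 50.1 counts, so replicate 2 was its highest library there, whereas replicate 1 was highest in the RSEM-type tables. Its values between libraries are therefore uncertain.

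Ifitm2 overlapped Gm45717, a protein-coding gene on the same strand, over 1101 bases, and 42.0% of its 75-base words also occurred in other genes. RSEM-type tables gave Gm45717 0, 0 and 0 counts, whereas the kallisto-type tables gave it 65.4, 23.8 and 72.2. Ifitm2 itself had 97, 44 and 84 counts in the first and 278, 151 and 245 in the second, with replicate 1 highest and replicate 2 lowest in both. These counts are not scaled for the larger totals of the kallisto-type tables. For Ifit1, 11.0% of the 31-base words and 5.19% of the 75-base words also occurred in other genes, chiefly Ifit1bl2, which starts 128 nt away on the opposite strand. The strand setting of the counting is unknown here, so reads near these starts cannot be assigned to a strand. Ifit2 and Ifitm6 shared no word of either length with another gene. Ifitm1 and Ifitm3 shared 14.7% and 20.5% of their 31-base words, but under 1% of their 75-base words.

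**Figure D4:**
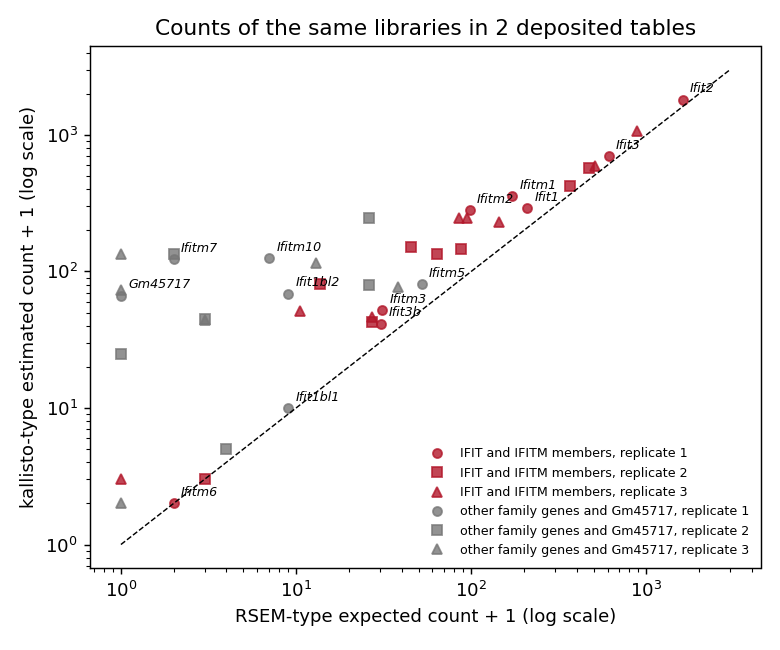
Count + 1 of each gene in the RSEM-type tables (horizontal, log scale) and the kallisto-type tables (vertical, log scale), with 1 symbol per library, members in red and other genes in grey, and the dashed line for equal values. Ifit2 and Ifit3 lie near the line, while Ifitm2, Ifitm7, Gm45717 and Ifit3b in replicates 2 and 3 lie well above it. The kallisto-type totals are larger, so the line does not mark an equal share of the library total.

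Relatives outside the 8 genes varied in level. Ifit1bl1 had 8, 3 and 0 counts. Ifit1bl2 had 8.03, 2 and 2.01 counts, but 67.8, 43.6 and 43.2 in the kallisto-type tables. Ifitm5, known for its role in bone, had 15.7, 5.23 and 8.08 TPM, with replicate 1 again the highest library. Its mean of 9.68 TPM is above those of Ifit1 and Ifitm3. Ifitm5 also overlaps Gm45717 on the same strand. Its counts were 51, 25 and 37, against 79.2, 79.0 and 75.8 in the kallisto-type tables. Its levels there were 12.2, 7.67 and 7.87 TPM, so the size of its change between libraries is uncertain. Ifitm10 had 3.17, 8.98 and 4.001 TPM, with replicate 2 the highest, and neither Ifitm5 nor Ifitm10 was called. The counts of Ifitm10 were 6, 25 and 12, against 124.1, 245.7 and 114.2 in the kallisto-type tables. Ifitm7 on chromosome 16 had 1, 1 and 0 counts, but 122.7, 133.1 and 134.0 in the kallisto-type tables, so the levels of Ifit1bl2, Ifitm7 and Ifitm10 are uncertain.

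The genes beside the clusters had other levels. Beside the Ifit cluster, Lipa, a lysosomal acid lipase, had 137.1, 125.6 and 94.1 TPM with a slope of -0.17 ± 0.13, which was not called. Pank1, a pantothenate kinase, had 3.94, 2.70 and 3.01 TPM and was not called. Ch25h, which makes 25-hydroxycholesterol, had 1, 0 and 0 counts, and the transporter gene Slc16a12 had 0 counts in every library. Beside the Ifitm genes, Pgghg had 15.2, 13.5 and 15.7 TPM with a slope of -0.11 ± 0.16, which was not called, and Nlrp6, an innate immune sensor, had 8, 2 and 4 counts. Gm17387 and B4galnt4 had 0 counts in every library of the RSEM-type tables.

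The 8 members have 13 annotated transcripts, all protein coding and 0 of them annotated as retained introns, so unspliced RNA of these genes has no transcript entry of its own. Ifit1, Ifit3, Ifit3b, Ifitm2 and Ifitm3 have 1 transcript each. For Ifit2, the transcript Ifit2-201 held 99.9%, 100% and 100% of the transcript counts. For Ifitm1, Ifitm1-203 held 90.7%, 96.8% and 87.6% in replicates 1, 2 and 3, a mean of 91.7% ± 4.7 (SD, n = 3). Ifitm1-201 held the remainder, on 15.8, 2.01 and 11.6 counts. In the kallisto-type tables the share of Ifitm1-203 was lower, at 83.4%, 92.1% and 83.2%, a mean of 86.2% ± 5.1. Ifitm6 had too few counts for such shares.

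Genes with the most similar pattern over the 3 libraries were found by the Euclidean distance of centred log2(TPM + 1) among 15331 genes. With 3 points many genes lie close, and the distances are a description only. For Ifit3 the nearest were Gm48621 at 26.3, 9.83 and 14.7 TPM, Cyp4v3 at 29.9, 11.2 and 16.6 TPM, and Abcg3 at 37.8, 14.4 and 21.6 TPM, with distances of 0.004, 0.014 and 0.014 log2 units. For Ifitm1 they were Il4i1 at 9.58, 1.73 and 3.27 TPM and the processed pseudogenes Gm36501 and Gm14049, with distances of 0.019, 0.023 and 0.023. All 6 had replicate 1 highest and replicate 2 lowest, like Ifit3 and Ifitm1, an order that follows from how they were chosen.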

How the data were processed

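RNA was measured in 3 libraries of 1 group. Group, replicate number, dose, time and RNA amount were taken from the labels. The authors deposited, for each library, gene and transcript tables with expected counts, TPM and a posterior SD of the count, under the column names of RSEM, and a transcript table with estimated counts and TPM under those of kallisto, per the file headers. Assembly mm10 and annotation M21 are named in the deposited readme files. The sources used here give no aligner, tool versions, strand setting or filters. The deposited TPM were scaled over all entries, short RNAs and spike-ins included.

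From the expected counts, TPM were recomputed over genes of 300 nt or more. All other entries held 67.1%, 62.1% and 61.7% of the deposited TPM. The pseudocount for log2 differences was 1. Total counts are given in the report. The slope with log2 RNA amount was fitted with edgeR 4.0.16 (R 4.3.3; TMM factors 1.12, 0.930 and 0.962; filterByExpr; quasi-likelihood F test), with the standard error derived from the F statistic. It was tested on simulated counts for this comparison. With 14721 genes tested, 6 of 200 genes changed by 0.5 log2 units per doubling were recovered with 0 false calls. With 14775 tested, 200 of 200 changed by 1 unit were recovered with 15 false calls. The changed genes were drawn from the more abundant ones, and all genes were given the same dispersion. Recovery of sparse genes was therefore not tested. Alternatives were RLE factors, DESeq2 1.42.0, no count filter, the kallisto-type table, deposited TPM, CPM without length, a pseudocount of 0.1, transcript shares of TPM and leaving out each replicate. A fit over genes of at least 300 nt was added after seeing the data, as were the kallisto-type family sums, gene order and marker levels.

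Promoter windows came from RefSeq (GRCm38.p6). Transcripts came from GENCODE M21 and were aligned with BLAST 2.17.0. Isoform shares needed 50 counts in each library. Named genes were the members, other Ifit and Ifitm genes, 2 neighbours on each side of a cluster, the 3 highest, 2 lowest and 3 largest called changes of each list, and the 3 genes nearest in pattern to the highest member of each family. Gm45717 was added after its values were seen. The members, lists and tests were chosen with earlier results of these data known. Some results are not reported here.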

Additional observations from a re-analysis of the deposited data

How the results depend on the processing

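Of the members tested for a change with RNA amount, 3 were called in the fit reported and 4 with RLE size factors, 4 over genes of at least 300 nt only (Ifit3 added in both, a fit chosen after seeing the data in the second case), 4 without a count filter (Ifitm2 added), 2 with the kallisto-type counts and 1 with DESeq2, which gave no adjusted p for Ifit3b, Ifitm2 and Ifitm3. Over all genes, 661 of 15077 were called in the fit reported. The numbers were 698 of 15077 with RLE size factors and 741 of 14944 over genes of at least 300 nt only. They were 1181 of 24386 without a filter and 487 of 24300 with the kallisto-type counts. DESeq2 called 376 of the 15077 genes it was given. Because genes without an adjusted p cannot be called, its share of genes tested is not given. Ifit2 was called in all 6 fits. Slopes from 2 libraries have no test. Without each replicate in turn they ran from 0.86 to 1.17 for Ifit2, from 0.67 to 0.83 for Ifit1, from 0.50 to 1.16 for Ifitm1, from 0.43 to 0.55 for Ifit3 and from 0.50 to 0.85 for Ifitm2. For Ifit3b the slope was -0.48 without replicate 1, 1.82 without replicate 2 and -0.35 with the kallisto-type counts, and for Ifitm3 it was -0.045 without replicate 1 and 0.48 without replicate 2; the cause was not tested. The count of members at 1 TPM or more was 6 to 7 with each replicate left out, 6 in the deposited TPM and 7 in the kallisto-type table. The difference of Ifitm3 from the Ifit members ran from -0.75 to -0.27 with each replicate left out, and from -0.57 to -0.39 under the other alternatives. With the kallisto-type table, an alternative chosen after seeing the data for these comparisons, the mean ratio of the Ifit to the Ifitm sum was 0.847 in place of 1.62, and Ifit2 minus Ifitm1 was -0.20 in place of 0.61 log2 units; the cause was not tested. Ifitm1 minus Ifitm2 moved from -0.09 to -0.46 and Ifitm2 minus Ifit1 from 1.44 to 2.26. No paired analysis was possible because the libraries form 1 group. Ifit3b, Ifitm3 and Ifitm6, with at most 30 counts a library, are limited by depth.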
